A study of Mus musculus with 8 samples.

Results

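Condensin I and condensin II are the protein complexes that shape mitotic chromosomes, and their 8 subunit genes were compared between quiescent (G0) and G1 cells of a mouse fibroblast line. The members are the rows of the array table whose only gene symbol is Smc2, Smc4, Ncapd2, Ncapd3, Ncapg, Ncapg2, Ncaph or Ncaph2. They are 22 probe sets for 8 genes, out of 45037 probe sets tested and 18193 genes with at least 1 probe set of their own. A probe set is a group of short array probes read as 1 value.

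The cells were NIH3T3, an established mouse embryonic fibroblast line. All of them, in both groups, had been transduced with mVenus-p27K-, a fluorescent fusion of a p27 mutant that marks quiescence, and with mCherry-hCdt1(30/120), a fluorescent Cdt1 fragment that is present in G0 and G1 and is destroyed from S phase on. They were kept without serum, returned to medium with 10% serum for 5 h and sorted on both reporters. Cells positive for both are called G0 and gave 4 arrays, and cells negative for mVenus and positive for mCherry are called G1 and gave 4 arrays. The names G0 and G1 therefore rest on these reporters. The sources used here do not say whether the line was a clone or a pool. No label ties a replicate to a culture of its own, so each p-value reflects only how much these samples vary, and that variation may be technical.

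Condensins are ring-shaped machines that use ATP to pull chromatin into loops. Smc2 and Smc4 form the ATPase core of both complexes. Condensin I adds the kleisin Ncaph, which closes the ring, and the HEAT-repeat subunits Ncapd2 and Ncapg. Condensin II adds their relatives Ncaph2, Ncapd3 and Ncapg2 in the same positions. Condensin II sits in the nucleus throughout interphase and begins condensation in prophase, while condensin I reaches the chromosomes after the nuclear envelope breaks down. Many genes of chromosome condensation are transcribed with the cell cycle, through promoter elements bound by E2F factors and by the DREAM complex.

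All values are log2 expression relative to the median of the same probe set over the 8 arrays. A level of 0 is thus each probe set's own midpoint, differences between groups are measured, and levels cannot be compared between genes. In RNA of a sorted population, fewer cells that carry a transcript and less of it per cell cannot be told apart. Array medians lay between -0.067 and 0.087. The poly-A spike-ins, bacterial transcripts added before labelling, had a mean of -6.66 on G0 replicate 3 and -6.39 on G1 replicate 4, against -0.17 to 0.60 on the other 6 arrays. The labels instead place replicate 4 of both groups in a second labelling batch. If the titles of G0 replicates 3 and 4 were exchanged, both would name the same arrays, the labelled batch used here would be wrong and values by replicate 3 or 4 of G0 would swap; the files do not settle this. Results are therefore given for the batch of the labels and for the batch that the spike-ins show. Over all arrays the differences are the same under both and only their errors differ. The same 2 arrays also had the lowest 3′ minus 5′ difference between the beta-actin control probe sets, -0.78 on each, against -0.12 to 0.19 on the others.

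Promoter sequence is shown for the 4 members with a probe set that passed the test below, and for Ncaph2, the member with the smallest differences. RefSeq windows (GRCm38.p6) matched 7 of the 8 members, all but Smc4, with 8 windows in all because Ncapd3 has 2. Each sequence below is the 250 bases before the annotated start, read 5′ to 3′ on the gene's strand, with matches to the searched motifs in capitals. The motifs were TTTGAA, the cell cycle genes homology region (CHR) bound by the DREAM complex, its variant TTCGAA, the E2F sites TTTCCCGC and TTTGGCGC, and CCAAT, the box bound by NF-Y. All were searched on both strands, so a CHR can appear as TTCAAA and a CCAAT box as ATTGG.

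In order of the size of the difference, these are the windows shown.
Ncapg, chr5:45669675-45669924, plus strand: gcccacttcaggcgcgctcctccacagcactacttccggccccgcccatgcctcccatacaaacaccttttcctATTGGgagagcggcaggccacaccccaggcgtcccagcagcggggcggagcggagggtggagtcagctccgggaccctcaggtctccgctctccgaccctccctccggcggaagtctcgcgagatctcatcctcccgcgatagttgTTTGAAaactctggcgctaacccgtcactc
Ncapg2, chr12:116405186-116405435, plus strand: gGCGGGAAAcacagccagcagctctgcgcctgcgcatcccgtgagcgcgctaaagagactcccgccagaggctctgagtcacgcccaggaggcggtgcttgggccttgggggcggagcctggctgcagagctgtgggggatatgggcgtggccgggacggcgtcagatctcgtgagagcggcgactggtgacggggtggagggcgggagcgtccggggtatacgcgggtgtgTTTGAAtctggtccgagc
Ncapd2, chr6:125191587-125191836, minus strand: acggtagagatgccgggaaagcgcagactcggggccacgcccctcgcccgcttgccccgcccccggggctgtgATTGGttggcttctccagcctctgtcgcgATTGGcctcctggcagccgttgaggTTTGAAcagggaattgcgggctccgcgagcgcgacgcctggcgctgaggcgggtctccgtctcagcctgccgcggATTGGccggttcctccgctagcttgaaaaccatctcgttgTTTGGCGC
Smc2, chr4:52438971-52439220, plus strand: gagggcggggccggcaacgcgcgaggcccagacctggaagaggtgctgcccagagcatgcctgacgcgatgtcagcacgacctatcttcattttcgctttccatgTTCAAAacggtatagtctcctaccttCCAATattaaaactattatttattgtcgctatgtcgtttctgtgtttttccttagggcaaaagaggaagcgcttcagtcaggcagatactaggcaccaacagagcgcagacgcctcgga
Ncaph2, chr15:89355469-89355718, plus strand: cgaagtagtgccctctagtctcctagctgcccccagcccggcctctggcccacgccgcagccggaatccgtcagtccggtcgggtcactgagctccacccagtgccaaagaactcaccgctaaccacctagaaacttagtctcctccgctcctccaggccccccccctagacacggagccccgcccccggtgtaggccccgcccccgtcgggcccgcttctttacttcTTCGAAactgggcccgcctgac

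In the Ncapg window TTTGAA begins 30 bases before the start and an inverted CCAAT box 176 bases before it. Ncapg2 holds TTTGAA 18 bases before the start and an inverted E2F match 249 bases before it. In Ncapd2 TTTGAA lies 123 bases before the start, TTTGGCGC 8 bases before it, and 3 inverted CCAAT boxes at 177, 148 and 48 bases. The Smc2 window holds an inverted CHR at 145 bases and a CCAAT box at 119. Ncaph2 has only the variant TTCGAA, 22 bases before the start. The first Ncapd3 window and that of Ncaph had no match to the letters searched, and the second Ncapd3 window had an inverted CHR at 249 bases. No matches overlapped.

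TTTGAA occurred in 5 of the 8 member windows and in 16% of all 32851 windows of the same length. TTCGAA was in 1 member window and in 1.34% of all, and either E2F site in 2 member windows and 1.3% of all. CCAAT boxes were in 3 member windows and 33.8% of all. Such matches are descriptions of sequence and not binding sites.

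Of the 8 condensin genes 4 had a probe set that rose from G0 to G1, and the other 4 had none that passed. A gene with more probe sets has more chances to be counted so, and no share of all genes is given for this count. Counted only on the probe set that stands for each gene, as in the gene lists further on, 3 genes rose (Ncapg, Ncapg2 and Ncapd2), since that of Smc2 did not pass. Of all genes 0.5% were called higher in this way. On the same probe sets the spike-in batch gave 1 of 2 SMC core genes, 3 of 3 in condensin I and 1 of 3 in condensin II, beside 0.929% of all genes. All 22 probe sets had a positive difference, G1 minus G0, as had 45% of all probe sets. Ncapg, Ncapg2, Ncapd2 and Smc2 each had 1 probe set that rose in G1, with an adjusted p under 0.05 in limma with the labelled batch and adjustment over all 45037 probe sets. These 4 of 22 stand beside 0.373% of all probe sets called higher. The other 18 did not pass, and 0 member probe sets were lower, against 0.0266% of all called lower. At an unadjusted p under 0.05, 16 of the 22 were higher, against 3.71% of all. With the spike-in batch as covariate 12 of the 22 passed, from 6 genes, against 0.702% of all. These 12 added Smc4 (3 probe sets), Ncaph (2), another of Ncapg and 2 more of Smc2 to the 4 above. Ncapd3 and Ncaph2 did not pass in either fit.

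In 14 of the 22 probe sets every G1 array lay above every G0 array, as in 3.16% of all probe sets. The opposite order was seen in 0 members and in 2.9% of all. The median difference was 2.13 over the 6 condensin I probe sets, 1.79 over the 8 of the SMC core and 0.72 over the 8 of condensin II, beside -0.06 over all genes, 1 probe set each. These counts depended on the arrays. On the 6 arrays with spike-ins 1 member probe set passed, that of Ncapg, beside 0.091% of all, while 18 of 22 did not overlap, beside 6.69% of all. With any 1 array left out of the limma fit with the labelled batch the count was 0 to 2, beside 0 to 0.26% of all called higher. Where the member count was 0, 0 of all probe sets passed too.

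**Figure D1:**
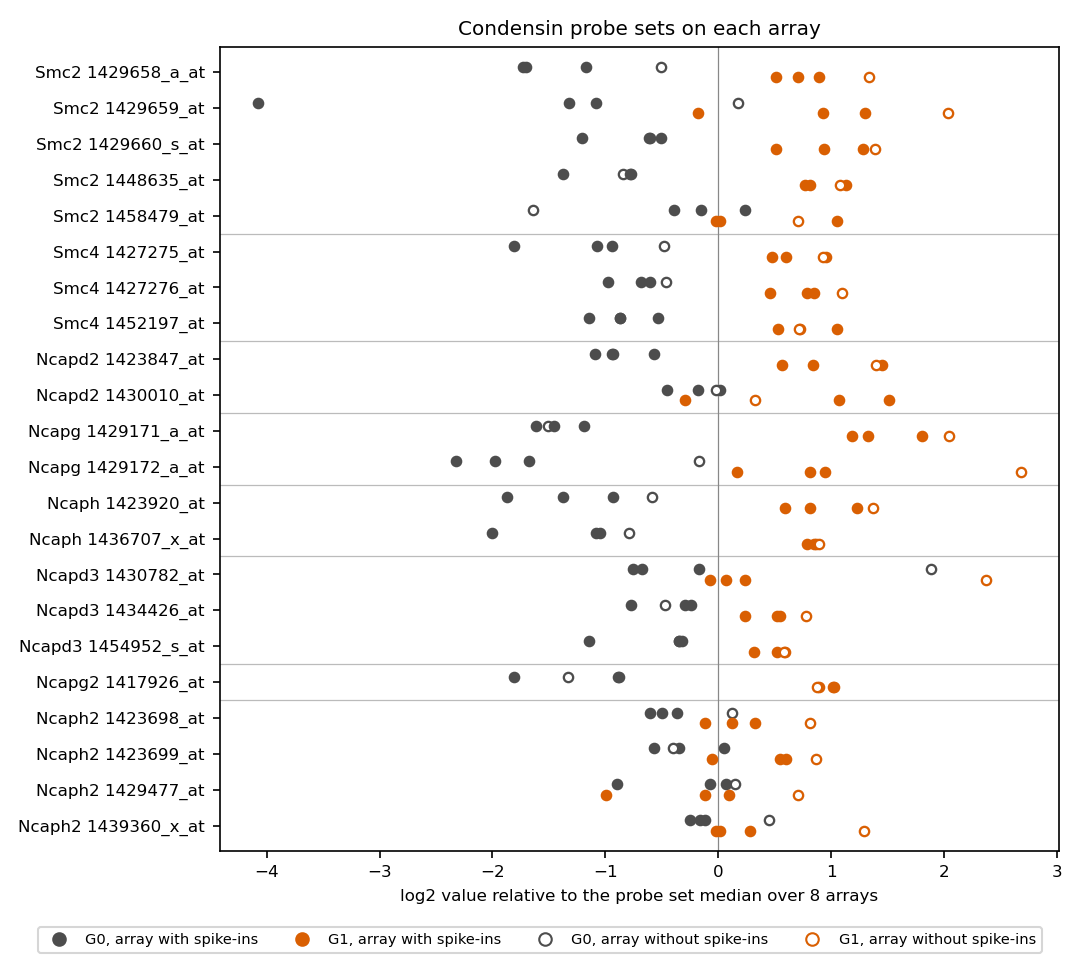
Log2 value of each of the 22 condensin probe sets (rows) on each of the 8 arrays (points), relative to the probe set's own median. Open points are the 2 arrays without spike-ins, G0 replicate 3 and G1 replicate 4. G0 and G1 points are fully separated in 14 rows, and they overlap in all 4 rows of Ncaph2.

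The SMC core comes first. Smc2, one of the 2 ATPases, was read by 5 probe sets. On 1448635_at the G0 replicates 1 to 4 were at -0.77, -1.37, -0.84 and -0.78, and the G1 replicates 1 to 4 at 1.13, 0.81, 0.77 and 1.08. G0 replicate 2 was the lowest, and the groups lay far apart. Smc2 rose 3.72-fold on this probe set (log2 difference 1.89, standard error (SE) 0.22, adjusted p = 0.0225 in limma, n = 4 per group). The labelled batches 1 and 2 taken alone gave 1.90 and 1.87. Split by the spike-ins, the arrays with them gave 1.88 and those without 1.92.

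The remaining Smc2 probe sets agreed in sign but not in precision. That of 1429660_s_at was 1.76 (SE 0.27, adjusted p = 0.0596) and that of 1429658_a_at 2.14 (SE 0.38, adjusted p = 0.111), and both passed with the spike-in batch (limma, adjusted p = 0.034 and 0.0133). On 1429659_at, which stands for the gene by the suffix rule, G0 arrays ran from -4.08 on replicate 2 to 0.18 on replicate 3, and G1 arrays from -0.18 to 2.04. The groups overlapped there, and its difference of 2.60 had an SE of 0.89 (limma, adjusted p = 0.577). The last, 1458479_at, differed by 0.92 (95% confidence interval -0.06 to 1.91) with overlapping groups.

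Smc4, the partner ATPase, had 3 probe sets, and in all of them every G1 array lay above every G0 array. On 1452197_at the G0 replicates 1 to 4 read -0.53, -1.14, -0.87 and -0.87, and the G1 replicates 1.05, 0.73, 0.53 and 0.72. The difference was 1.61 (SE 0.24), a 3.05-fold value, and missed the threshold with the labelled batch (limma, adjusted p = 0.0502). The other probe sets differed by 1.49 (1427276_at, adjusted p = 0.0517) and 1.82 (1427275_at, adjusted p = 0.112). With the spike-in batch all 3 passed (limma, adjusted p = 0.0226, 0.0131 and 0.0463). Smc4 thus lay on either side of the threshold by the choice of batch, with the same differences.

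Among the condensin I subunits, Ncapg, a HEAT-repeat subunit, had the largest difference of all members. On 1429171_a_at the G0 replicates 1 to 4 were at -1.19, -1.61, -1.51 and -1.45, and the G1 replicates at 1.81, 1.19, 1.33 and 2.05. No array of one group came near the other. Ncapg rose 8.21-fold in G1 (log2 difference 3.04, SE 0.24, adjusted p = 0.00999 in limma), and this difference ranked 58 among the 45037 probe sets. Labelled batches 1 and 2 gave 2.88 and 3.50, and arrays with and without spike-ins 2.86 and 3.56. This was also the member that passed on the 6 arrays with spike-ins.

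The second Ncapg probe set, 1429172_a_at, gave 2.69 with a wider error (SE 0.67, adjusted p = 0.304 in limma). Its G0 replicates were at -1.98, -1.68, -0.17 and -2.32, and its G1 replicates at 0.95, 0.81, 0.17 and 2.68. Both arrays without spike-ins were the highest of their group. With the spike-in batch its SE was 0.26 and it passed (limma, adjusted p = 0.0105). Labelled batches 1 and 2 gave differences of 1.92 and 5.00, whereas arrays with and without spike-ins gave 2.64 and 2.85.

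Ncapd2, the other HEAT-repeat subunit of condensin I, rose 3.86-fold on 1423847_at (log2 difference 1.95, SE 0.27, adjusted p = 0.0398 in limma). Its G0 replicates 1 to 4 were at -0.57, -1.09, -0.93 and -0.94, and its G1 replicates at 1.45, 0.57, 0.84 and 1.40. Labelled batches 1 and 2 gave 1.82 and 2.34, and arrays with and without spike-ins 1.82 and 2.33. The second probe set, 1430010_at, did not separate the groups. G1 replicate 2 was at -0.29 there, below 3 of the 4 G0 arrays, while G1 replicates 1 and 3 were at 1.07 and 1.51. It differed by 0.81 (95% confidence interval -0.15 to 1.78, adjusted p = 0.762 in limma).

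Ncaph, the kleisin of condensin I, was read by 2 probe sets that gave nearly the same value. On 1423920_at the G0 replicates were at -0.93, -1.87, -0.59 and -1.37, and the G1 replicates at 1.23, 0.59, 0.81 and 1.37. All G1 arrays were above all G0 arrays, and the spread was wider in G0 (SD 0.56) than in G1 (SD 0.36). The difference was 2.19 (SE 0.36), a 4.56-fold value, and did not pass with the labelled batch (limma, adjusted p = 0.077). The other, 1436707_x_at, differed by 2.08 (SE 0.33, adjusted p = 0.0655), and its G1 arrays had an SD of only 0.04. Its suffix marks probes that can cross-hybridise. With the spike-in batch both passed (limma, adjusted p = 0.0208 and 0.0313).

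Among the condensin II subunits Ncapg2, the relative of Ncapg, stood with condensin I in size. Its single probe set, 1417926_at, read -0.89, -1.81, -1.33 and -0.88 on G0 replicates 1 to 4, and 1.03, 0.89, 1.02 and 0.88 on the G1 replicates. The G1 arrays were tightly grouped and G0 replicate 2 was the lowest. Ncapg2 rose 4.54-fold in G1 (log2 difference 2.18, SE 0.29, adjusted p = 0.0311 in limma). It passed with the spike-in batch too (limma, adjusted p = 0.0183). Labelled batches 1 and 2 gave 2.32 and 1.76, and arrays with and without spike-ins 2.17 and 2.20.

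Ncapd3, the relative of Ncapd2 in condensin II, had 3 probe sets and none passed in either limma fit. On 1434426_at the G0 replicates were at -0.29, -0.77, -0.47 and -0.24, and the G1 replicates at 0.55, 0.24, 0.52 and 0.78. The groups did not overlap, and the difference was 0.97 (SE 0.20, adjusted p = 0.191, or 0.0989 under the spike-in batch). That of 1454952_s_at was 1.04 (SE 0.25, adjusted p = 0.291, or 0.141 under the spike-in batch). Both correspond to about the same fold, 1.95 and 2.06.

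The third Ncapd3 probe set, 1430782_at, stands for the gene by the suffix rule and followed another pattern. It read 1.89 on G0 replicate 3 and 2.37 on G1 replicate 4, the 2 arrays without spike-ins, and -0.75 to 0.24 on the other 6. The difference of 0.57 had an SE of 0.78 with the labelled batch and 0.20 with the spike-in batch (limma, adjusted p = 0.95 and 0.358). In labelled batch 1 its sign was opposite (-0.27), while arrays with and without spike-ins gave 0.61 and 0.48. Those 2 arrays widened the error, while the difference was about the same without them.

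Ncaph2, the kleisin of condensin II, differed least. On 1423699_at the G0 replicates were at -0.35, -0.57, -0.40 and 0.05, and the G1 replicates at 0.60, -0.05, 0.55 and 0.87. G0 replicate 4 lay above G1 replicate 2, so the groups overlapped. The difference was 0.81 (95% confidence interval 0.30 to 1.32, adjusted p = 0.376 in limma; 0.275 with the spike-in batch). On the other 3 probe sets the differences were 0.62, 0.41 and 0.11 (limma, adjusted p = 0.720, 0.872 and 0.984), and the groups overlapped on each. The smallest, that of 1429477_at, had a 95% confidence interval of -0.81 to 1.04. On the 6 arrays with spike-ins it was -0.04.

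**Figure D2:**
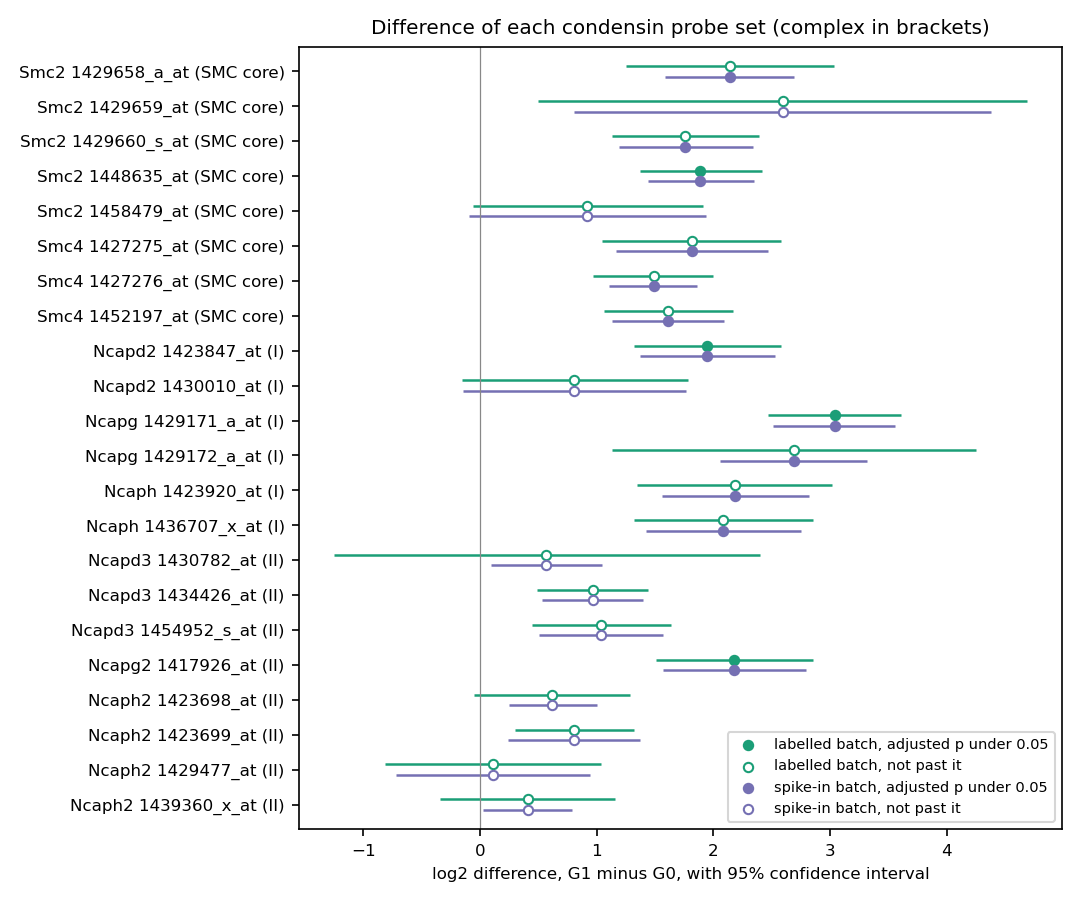
Log2 difference, G1 minus G0, of each condensin probe set with its 95% confidence interval, in limma with the labelled batch and with the spike-in batch; filled points have an adjusted p under 0.05. Differences run from 0.11 for a Ncaph2 probe set to 3.04 for Ncapg, and 4 points are filled with the labelled batch and 12 with the spike-in batch.

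Condensin I against condensin II was then compared within arrays, subunit by subunit, as the log2 value of a condensin I subunit minus that of its relative. The kleisins come first. Ncaph minus Ncaph2 was at -0.57, -1.37, -0.71 and -0.77 on G0 replicates 1 to 4, and at 0.90, 0.46, 0.93 and 0.56 on the G1 replicates. The groups did not overlap, so from G0 to G1 Ncaph gained on Ncaph2 by 1.56, a 2.96-fold ratio (SD 0.35 in G0 and 0.23 in G1; two-sided exact permutation test over 70 splits of the arrays, p = 0.0286, the smallest it can give; adjusted p = 0.0429 over the 3 pairs). This test ignores the batch: permuted within labelled batches, the adjusted p was 0.075, from a p of 0.05 that is the smallest possible there. Labelled batches 1 and 2 gave gains of 1.64 and 1.33, and arrays with and without spike-ins 1.66 and 1.27. With the mean of each gene's probe sets the gain was 1.65, the groups did not overlap and p was again 0.0286 (exact permutation test). The adjusted p was 0.0857 there, because the other pairs had larger p-values (0.229 and 0.257). All 8 pairings of a Ncaph with a Ncaph2 probe set were positive, from 1.27 to 2.07.

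Ncapg gained on Ncapg2 as well, although both rose. Ncapg minus Ncapg2 was at -0.30, 0.20, -0.18 and -0.57 on the G0 replicates and at 0.78, 0.30, 0.31 and 1.18 on the G1 replicates. The highest G0 array came close to the lowest G1 array but lay below it. The gain was 0.86 (1.81-fold; two-sided exact permutation test, p = 0.0286, adjusted p = 0.0429 over the 3 pairs, or 0.075 permuted within labelled batches). Labelled batches 1 and 2 gave 0.56 and 1.74, and arrays with and without spike-ins 0.69 and 1.36. With the mean of both Ncapg probe sets it was 0.68 and the groups overlapped (exact permutation test, adjusted p = 0.257).

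For Ncapd2 and Ncapd3 the result turned on the probe set. With the probe sets of the suffix rule, Ncapd2 minus Ncapd3 was at -0.40, -0.42, -2.82 and -0.19 in G0 and at 1.22, 0.65, 0.77 and -0.97 in G1. The groups overlapped, and the gain of 1.37 did not pass (two-sided exact permutation test, p = 0.114, adjusted p = 0.114 over the 3 pairs). The outlying values were again those of G0 replicate 3 and G1 replicate 4. Its sign was opposite in labelled batch 2 (-0.78), and arrays with and without spike-ins gave 1.22 and 1.85. With the quietest probe set of each gene, the one with the smallest SD within groups, the gain was 0.98, the groups did not overlap and the test passed (exact permutation test, p = 0.0286, adjusted p = 0.0286). With the mean of all probe sets it was 0.52 (adjusted p = 0.257), and 4 of the 6 pairings of single probe sets were positive.

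Averaged over the 3 positions, condensin I minus condensin II was at -0.42, -0.53, -1.24 and -0.51 on the G0 arrays and at 0.97, 0.47, 0.67 and 0.26 on the G1 arrays. The mean moved from -0.67 to 0.59, a difference of 1.26. This is a description with no test, and a ratio within an array shows unequal change, not that either side stayed the same. On the 6 arrays with spike-ins the difference was 1.19, and with the mean of each gene's probe sets 0.95.

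**Figure D3:**
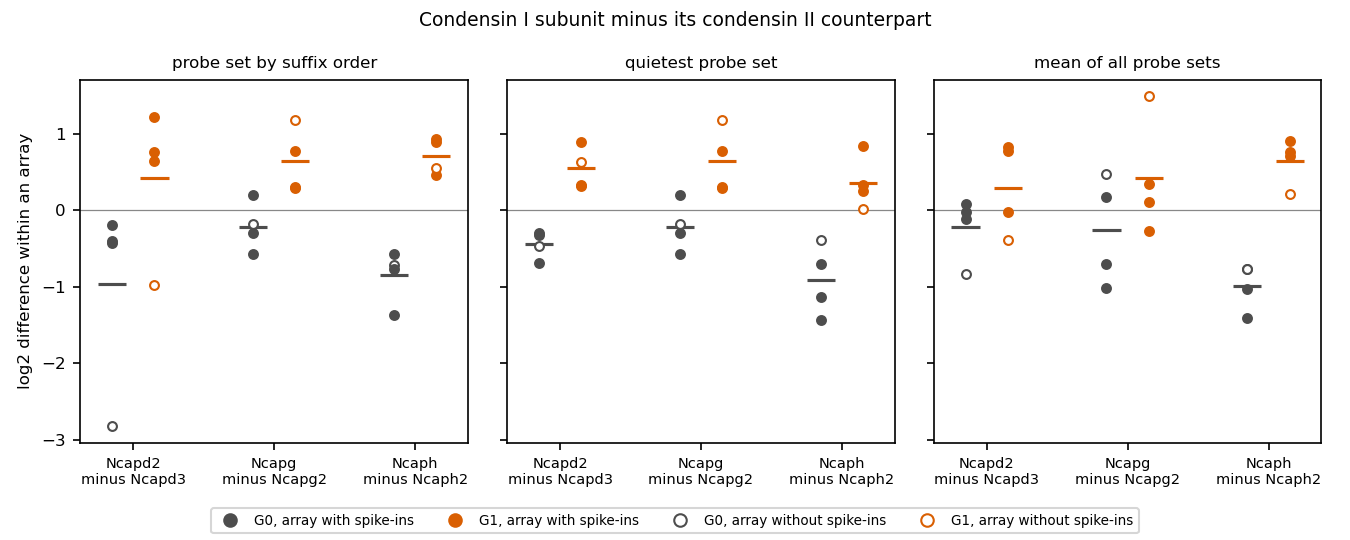
Log2 value of a condensin I subunit minus that of its condensin II counterpart on each array, with group means as bars, for 3 ways of choosing the probe set. Ncaph minus Ncaph2 separates G0 from G1 in every panel, while the other pairs overlap in at least 1 panel.

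The arrays of a group also differed among themselves in a shared way. G0 replicate 2 was the lowest of the 8 arrays for 15 of the 22 member probe sets, and for 15.7% of all probe sets. G1 replicate 4 was the highest for 14 of the 22, and for 19.9% of all. The lowest and highest array of a member that is higher in G1 must mostly fall in G0 and G1, so these shares are a description. G1 replicate 4 is also one of the arrays without spike-ins, and its part in the size of the differences is seen in the values on the 6 other arrays above.

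**Figure D4:**
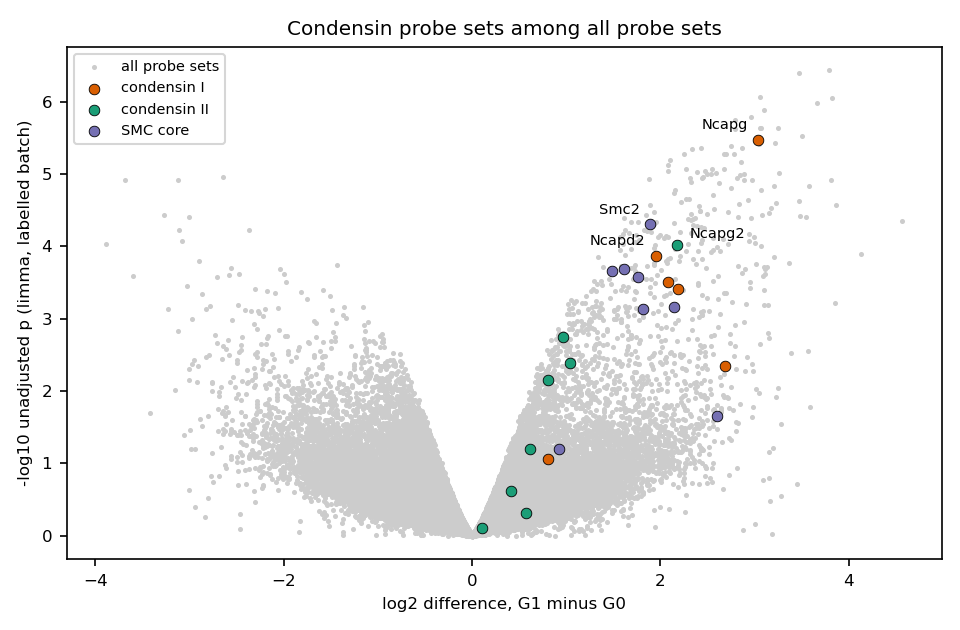
Each of the 45037 probe sets by its log2 difference, G1 minus G0, and the -log10 of its unadjusted p in limma with the labelled batch; condensin probe sets are coloured by complex and those past the threshold are named. Condensin I and SMC core points lie mostly at or beyond a difference of 1.49, and most condensin II points lie between 0.11 and 1.04, with Ncapg2 at 2.18.

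Genes that act on condensin were taken from a list of 15, of which 13 had a probe set of their own. Of these 4 rose, 0 fell and 9 did not pass, beside 0.5% of all genes called higher. The 4 were mitotic kinases or their partner. Cdk1, which phosphorylates condensins to activate them in mitosis, moved from -1.01 ± 0.06 in G0 to 1.1 ± 0.18 in G1 (SD, n = 4), a 4.30-fold rise (adjusted p = 0.011 in limma). Plk1, which acts on condensin II, rose 6.95-fold (log2 difference 2.80, SE 0.21, adjusted p = 0.00889). Incenp, the scaffold of the kinase Aurkb, rose 4.82-fold (2.27, SE 0.24, adjusted p = 0.0164), and Aurkb itself rose too (3.50, SE 0.28, adjusted p = 0.00999).

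The 9 that did not pass were Mcph1, Set, Csnk2a1, Csnk2a2, Phf8, Akap8, Akap8l, Ppp2ca and Ppp2r1a. Mcph1, an inhibitor of condensin II, differed by 0.95 (95% confidence interval 0.34 to 1.56, adjusted p = 0.387 in limma; 0.152 with the spike-in batch), with no overlap of its groups. The kinase CK2 restrains condensin I in interphase, and its catalytic subunits Csnk2a1 and Csnk2a2 differed by -0.13 and -0.05 (limma, adjusted p = 0.961 and 0.996). For Csnk2a2 the 95% confidence interval was -1.39 to 1.29. Over the 13 genes the median difference was 0.26.

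Of 12 other proteins of chromosome structure 11 were measured (Chaf1a was not analysed here). In limma with the labelled batch 5 rose, 0 fell and 6 did not pass, beside 0.5% of all genes called higher. Kif4, a chromosome-bound kinesin that works with condensin I, rose 3.88-fold (log2 difference 1.96, SE 0.23, adjusted p = 0.022 in limma). Kif22, which pushes chromosome arms outward, rose 5.36-fold (2.42, SE 0.27, adjusted p = 0.020), Bub1, a kinetochore kinase, 8.29-fold (3.05, SE 0.25, adjusted p = 0.00999) and Sgo1, the protector of centromeric cohesin, 5.02-fold (2.33, SE 0.29, adjusted p = 0.0263). The fifth was Mki67, the surfactant of mitotic chromosomes (3.82, SE 0.25, adjusted p = 0.00889). Top2a, the topoisomerase that works beside condensin, differed by 0.21 (adjusted p = 0.982) on the probe set that stands for it, while 1 of its 3 probe sets passed. Cdca2 and Hmgb2 likewise had 1 of 3 probe sets past the threshold with the labelled batch, but not the one that stands for the gene. With the spike-in batch 7 of the 11 genes rose, beside 0.929% of all genes called higher. These 7 added Nusap1 and Cdca2 (limma, adjusted p = 0.0172 and 0.0118). The list's median was 2.33.

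Relatives of condensin were looked at next. Among 5 genes of the cohesin core, the ring that holds sister chromatids, 0 passed in limma and 1 was higher at an unadjusted p under 0.05. The largest differences were those of Smc1a, an ATPase of the ring (0.51, SE 0.18, adjusted p = 0.582), and the kleisin Rad21 (0.43, SE 0.24, adjusted p = 0.790), and the list's median was 0.42. The SMC5/6 repair complex had 6 genes measured with a median of 0.27, none past the threshold in limma (0 of 6) and 1 higher at an unadjusted p under 0.05. Nsmce4a, its kleisin, differed by 0.91 (SE 0.19, adjusted p = 0.182) and Nsmce1 by -0.86 (SE 0.71, adjusted p = 0.880). Nsmce1 was at -4.47 on G1 replicate 4 and at -0.17 to 0.71 on the other G1 arrays, and 2 of its 3 probe sets had a positive difference. Smchd1, an SMC-like protein of the inactive X chromosome, differed by 0.64 (SE 0.19, adjusted p = 0.447). For Smc1a, Smc3, Nsmce4a and Smchd1 every G1 array lay above every G0 array, as in 3.16% of all probe sets, and for the other genes of these lists the groups overlapped. Differences between these lists and condensin were not tested.

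The genes whose pattern over the 8 arrays was most like the mean of the 3 condensin I subunits were Sgo1 (Pearson r = 0.997), Kif4 (0.995), Kif20a (0.994), Rfc5 (0.994) and Espl1 (0.994), each by the probe set that stands for it. Kif20a, a kinesin of cytokinesis, and Espl1, the separase that cuts cohesin, rose by 2.75 and 2.56 on the log2 scale (limma, adjusted p = 0.0127 and 0.0147). Rfc5, a subunit of the clamp loader of replication, rose by 1.85 (adjusted p = 0.0257). Most like the mean of the 3 condensin II subunits were Enkd1 (0.994), Smpd4 (0.990), Ndc1 (0.989), D17H6S56E-5 (0.989) and Parpbp (0.987), with differences of 0.49 to 1.90 that did not pass (limma, adjusted p from 0.296 to 0.769). That mean holds the Ncapd3 probe set that was high on the 2 arrays without spike-ins. All points share the same 8 arrays, and the difference between the groups is part of each r, so these are descriptions.

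Markers of the labelled cell type and of other cells were looked at in the same fit. In it, of 18193 genes by 1 probe set each, 91 were called higher and 4 lower. At an unadjusted p under 0.05, 788 of them were higher and 680 lower. Of 9 measured fibroblast markers 0 passed in limma and 1 was lower at an unadjusted p under 0.05, with a median of -0.14; the mean of the list ran from -0.10 to 0.53 over the G0 arrays and from -0.56 to 0.37 over the G1 arrays. Of the 7 leukocyte, 7 epithelial, 6 endothelial and 6 muscle and fat markers measured, 0 passed in limma, and at an unadjusted p under 0.05 there was 1 leukocyte marker lower and 1 endothelial marker higher. Array means of these 4 lists spanned -0.87 to 0.61 among G0 arrays and -0.66 to 0.47 among G1 arrays, with overlap in each. Because levels are centred, these values do not show which markers were present, and the part of other cells in the condensin differences was not tested.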

How the data were processed

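Total RNA of 8 samples was hybridised to Affymetrix mouse arrays. The deposited values are log2 expression, read as base 2 because the base is not stated; MAS5 is named in the submitters' processing notes. In the deposited table the median of every probe set over the 8 arrays is 0 (largest absolute median 5e-07), so values were centred per probe set; the sources used here do not describe that step. No level filter was possible, and the number of arrays limits the precision. After removing 64 control probe sets, 45037 were tested, 34945 of them with 1 gene symbol.

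G1 minus G0 was fitted in R 4.3.3 by limma 3.58.1 (lmFit, eBayes with trend, two-sided) with the labelled batch as covariate and Benjamini-Hochberg adjustment over 45037 probe sets; per the labels' protocols replicate 4 of each group was labelled with protocol revision 3 and the others with revision 8. The batch that the spike-ins show (poly-A mean below -2) was an alternative. A gene was represented by suffix order (_at, _a_at, _s_at, _x_at), then the lowest number. Paralogue pairs were compared by exact permutation (SciPy 1.17.1). Promoters came from RefSeq, GRCm38.p6. Named genes are all members and the genes of the lists past the threshold, or the pair with the largest differences where none passed. The 5 most alike in pattern are also named, and marker lists are given as counts only. Mcph1, the CK2 subunits, Top2a, Cdca2, Hmgb2, Nusap1 and Smc3 were named after their values were seen. Members, lists, motifs and tests were chosen with earlier results of these data known. Left-out arrays, scalings, error models and probe set choices were varied.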

Additional observations from a re-analysis of the deposited data

Results flagged for a closer look

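Within-group gaps were checked in 50 groups of 4 arrays, the 22 probe sets and the 3 paralogue pairs in G0 and in G1, against Dixon's 95% critical value for the gap to the nearest array over the range. Chance marks about 1 in 20 such groups, and 5 were marked. G0 replicate 2 was far below the other G0 arrays for Smc2 on 1448635_at (-1.37, others -0.84 to -0.77) and on 1429660_s_at (-1.21, others -0.61 to -0.51), and for Ncapd3 on 1454952_s_at (-1.14, others -0.35 to -0.32). G1 replicate 4 was far above the other G1 arrays for Ncapd3 on 1430782_at (2.37, others -0.07 to 0.24). G0 replicate 3 was far below the others in Ncapd2 minus Ncapd3 (-2.82, others -0.42 to -0.19), a pair that uses the same Ncapd3 probe set. The last values belong to the arrays without spike-ins; the part of the labelling was not tested.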

How the results depend on the processing

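The count of condensin probe sets higher in G1, 4 of 22 among 180 of all probe sets past the threshold in either direction, differed between settings. It was 12 (of 355) with the spike-in batch, 10 (of 269) with no batch term, 9 (of 212) with quantile normalization, 9 (of 213) with arrays centred on their medians, 1 (of 44) on the 6 arrays with spike-ins and 0 (of 0) in labelled batch 1 alone, where limma gave 15 members, and 3.26% of all, higher at an unadjusted p under 0.05. With any 1 array left out it ran from 0 to 2 (all probe sets 0 to 122) with the labelled batch, and from 0 to 9 (all probe sets 0 to 237) with the spike-in batch, settings added after seeing the data (8 without G0 replicate 2; of all probe sets 99 without G0 replicate 3 and 53 without G1 replicate 2); the cause was not tested. The 2 without G0 replicate 3 and the 1 without G0 replicate 1 were the only non-zero counts with the labelled batch; in the others 15 to 17 members, and 3.22 to 3.39% of all, were higher at an unadjusted p under 0.05 in limma.

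By their titles, same-numbered G0 and G1 arrays had deviations correlated at 0.07, 0.11, -0.14 and -0.14, while G0 replicate 3 and G1 replicate 4 had 0.31. If the titles of G0 replicates 3 and 4 were exchanged, 0.31 would belong to a same-numbered pair. These correlations therefore cannot decide whether the replicate numbers pair the arrays. With the replicate block 0 member probe sets and 0 of all passed in limma, while 17 members, and 3.63% of all, had an unadjusted p under 0.05 with G1 higher. The sign flips of same-numbered pairs gave the pairs an adjusted p of 0.188 for Ncapg minus Ncapg2 (0.86) and Ncaph minus Ncaph2 (1.56), where the smallest unadjusted p is 0.125.

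Signs reversed for Ncapd3 on 1430782_at (-0.27 in labelled batch 1 alone; -0.27 to 1.27 with 1 array left out) and for Ncaph2 on 1429477_at (-0.11 in labelled batch 1 alone, -0.04 on the 6 arrays with spike-ins, and -0.11 to 0.38 with 1 array left out, being -0.09 without G0 replicate 2 and 0 without G1 replicate 3; with the spike-in batch it was -0.07, -0.04, -0.01 and -0.04 without G0 replicates 2 and 3 and G1 replicates 3 and 4). The other 20 member probe sets kept a positive sign in every setting run.

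Ncapg minus Ncapg2 was 0.68 with the mean of probe sets, 0.56 in labelled batch 1, 0.69 on the 6 arrays with spike-ins (0.57 there with the mean) and 0.86 permuted within labelled batches; Ncaph minus Ncaph2 was 1.65, 1.64, 1.66, 1.87 and 1.56. None of these passed, and with 3 arrays a group, 1 array left out or splits within labelled batches the exact permutation test cannot (smallest p = 0.1, 0.0571 and 0.05). Left-out arrays gave 0.68 to 0.99 and 1.39 to 1.66. Ncapd2 minus Ncapd3 was 0.98 with the quietest probe sets, which were picked by the spread of these same arrays. Its p-value there is therefore not counted as a pass. This pair's difference was negative in labelled batch 2 (-0.78, or -0.27 with the mean of probe sets) and ran from 0.76 to 1.84 with 1 array left out. The mean over the 3 positions ran from 1.08 to 1.38 with 1 array left out. In the other settings it ran from 0.95 (mean of probe sets) to 1.43 (labelled batch 1 alone).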

Other observations

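Smc2os, by its symbol a transcript from the strand opposite Smc2, was singled out after its values were seen. Its probe set 1441142_at read 2.53, 1.27, 0.22 and 3.17 on G0 replicates 1 to 4, and -0.50, -1.10, -0.24 and -0.22 on the G1 replicates. All G1 arrays lay below all G0 arrays, as in 2.9% of all probe sets. The difference of -2.31 had an SE of 0.82 and did not pass (limma, adjusted p = 0.593), and the G0 arrays were widely spread.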
